A study of Mus musculus with 386 samples.

Results

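Rab GTPases are the largest family of small membrane GTPases, and the genes described here are the rows of the count table whose symbol is Rab followed by digits and at most 2 letters. The rule matched 63 of 54658 gene rows, after 4 pseudogene rows were left out. By their annotation, 59 of the 63 encode Rab GTPases. The other 4 are the antisense RNAs Rab10os and Rab26os, and Rab3ip and Rab5if, which carry the letters Rab in the name of a partner protein. The question was which paralogue of each Rab subgroup female germ cells use as they pass from the late fetal ovary to the first follicles.

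The libraries are of single female germ cells of the mouse, collected manually after enzymatic dissociation of the ovaries, and were made with Smart-seq2, a full-length method without molecular identifiers. Of the 386 libraries, 22 were from embryonic day 17.5 (E17.5) and 47 from postnatal day 6.5 (P6.5), and all the others from postnatal day 2.5 (P2.5). The labels give no strain, genotype, treatment or animal for any group, and all 3 share the label female germ cell. Each stage was therefore treated as 1 sample, and no test between stages was possible. Intervals of ratios cover counting error only and treat reads as independent molecules, which cannot be assumed without molecular identifiers. Intervals of shares of cells treat cells as independent draws, although cells of 1 stage are not replicates.

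A Rab protein is a molecular switch that binds membranes when it holds GTP and is extracted to the cytosol when it holds GDP. Exchange factors load GTP, GTPase-activating proteins trigger hydrolysis, and effectors such as tethers and motors read the active form. Each membrane carries its own Rabs: Rab1 between the endoplasmic reticulum and the Golgi, Rab6 at the Golgi, Rab5 on early endosomes, Rab7 on late endosomes, Rab11 on recycling endosomes, and Rab3 and Rab27 on secretory vesicles. In mouse oocytes Rab11a vesicles carry actin nucleators, and Rab3a and Rab27a are known from the exocytosis of cortical granules at fertilization.

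The membrane anchor of a Rab is a prenyl group on cysteines at the very end of the protein. Coding ends are shown for the Rab3 group, for Rab5a and Rab5b, and for Rab32 and Rab38, where the leading paralogue differed between stages. They are also shown for the Rab6 pair, whose CPM ratios had opposite signs. Those of Rab5c, and of the Rab4 and Rab27 groups, where the leader also differed, are not shown. Each line gives the last 45 bases of the coding sequence with its stop codon, 5′ to 3′ (GENCODE M21 transcripts, GRCm38), and capitals mark the cysteine codons among the last 5 codons before the stop.
Rab3a, chromosome 8: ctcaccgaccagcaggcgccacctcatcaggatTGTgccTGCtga
Rab3b, chromosome 4: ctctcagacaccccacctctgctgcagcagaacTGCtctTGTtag
Rab3c, chromosome 13: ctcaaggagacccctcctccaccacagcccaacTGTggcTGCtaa
Rab3d, chromosome 9: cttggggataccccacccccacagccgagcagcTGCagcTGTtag
Rab5a, chromosome 17: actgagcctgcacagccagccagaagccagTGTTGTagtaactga
Rab5b, chromosome 10: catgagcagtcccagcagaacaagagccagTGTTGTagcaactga
Rab6a, chromosome 7: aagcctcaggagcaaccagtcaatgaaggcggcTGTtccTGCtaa
Rab6b, chromosome 9: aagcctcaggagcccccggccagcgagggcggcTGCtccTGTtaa
Rab32, chromosome 10: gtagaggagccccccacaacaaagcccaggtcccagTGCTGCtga
Rab38, chromosome 7: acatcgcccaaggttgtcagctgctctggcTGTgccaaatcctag
The Rab3 and Rab6 proteins end in a pair of cysteines split by 1 residue, the Rab5 proteins carry an adjacent pair upstream of the last residues, and Rab38 has a lone cysteine where Rab32 ends in 2. Across whole coding sequences the paralogues are well apart. Rab3a and Rab3d are 75.6% identical with a longest shared exact run of 29 bases, Rab6a and Rab6b 78.5% with 14 bases, and Rab1a and Rab1b, with the longest run of the 25 pairs compared, 76.05% with 38 bases.

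Library depth was 1016746 to 16125066 counts in E17.5, 435560 to 23982709 in P2.5 and 5714357 to 15799302 in P6.5. In P2.5, 24 pairs of libraries differed by no more than sampling noise and each such pair was taken as 1 cell, leaving 362 in all. The germ cell label held at P2.5 and P6.5, where 6 germ cell markers summed to at least 2002 CPM (each count scaled to a common library total) in every cell. It held less well at E17.5, where libraries 8, 10, 15 and 16 had between 246.6 and 705 CPM of these markers and the other 18 had at least 1175 CPM. Markers of other cells were also present at E17.5. The 5 erythroid markers summed to 214.3 to 5863 CPM over the E17.5 libraries, with medians of 1734 CPM at E17.5, 9.4 CPM at P2.5 and 0.99 CPM at P6.5, and their part in the Rab levels was not tested. The 11 mast cell markers other than Kit summed to 1604 to 120425 CPM in libraries 1 to 10 and to 10.1 to 239.7 CPM in libraries 11 to 22, against at most 122.9 CPM in P2.5 cells. Of these 11, Fcer1a and Mrgprb1 were at 0 in every E17.5 library, and 6 were at 0 in libraries 11 to 22. Granulosa cell markers, 12 genes, exceeded 1000 CPM in libraries 16, 18 and 19 and reached 1091 CPM in the highest P2.5 cell, and 3 surface epithelium markers summed to 662 CPM in library 16 and to 1768 CPM in the highest P2.5 cell. Values at E17.5 are therefore given with all 22 libraries and without the 4 low ones, and by library where a few libraries set them.

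Levels are CPM of each stage's summed counts, and so shares of all gene counts in the libraries, noncoding genes included. FPKM, which also divides by gene length, is used wherever 1 gene is compared with another. On the CPM scale the median gene had a log2 ratio of -0.26 at P2.5 over E17.5 and of -0.18 at P6.5 over P2.5. Scaled to the spike-in RNAs, these medians were 2.09 and 2.68, and spike-ins made 1.18%, 0.226% and 0.0296% of all counts at E17.5, at P2.5 and at P6.5. A lower level below is lower relative to the other gene counts of the cell, and the spike-in values of the ratios that turn round are given with the alternatives.

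Summed over its genes, the family took a larger share of the counts after birth. The 59 GTPase genes summed to 2629 CPM at E17.5 (2520 CPM without the 4 libraries), 3818 CPM at P2.5 and 3808 CPM at P6.5. Rab3d alone made 629 CPM of the P2.5 sum. Single cells overlapped, with sums of 1641 to 5314 CPM at E17.5 and 1640 to 4626 CPM at P2.5. The mix also changed. At P2.5 over E17.5, 52 of the 59 genes were measured, meaning at least 1 CPM in either stage and a count in at least 3 cells. Of these, 11 were at least 2-fold higher, beside 22.6% of all measured genes, and 13 at least 2-fold lower, beside 32.4% of all measured genes. As shares of the measured Rabs these counts are near the background or below it, so the family did not stand out as a whole. Without the 4 libraries the counts were 12 and 12, with backgrounds of 23.1% and 32.7%, and with the 10 of libraries 11 to 22 not low in germ cell markers they were 15 and 11 of 49, with backgrounds of 26.6% and 32.4%. The median Rab ratio was -0.28 with all libraries and 0.21 without the 4. The 7 genes not measured were Rab15, Rab17, Rab33a, Rab39b, Rab3c, Rab42 and Rab4b.

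**Figure D1:**
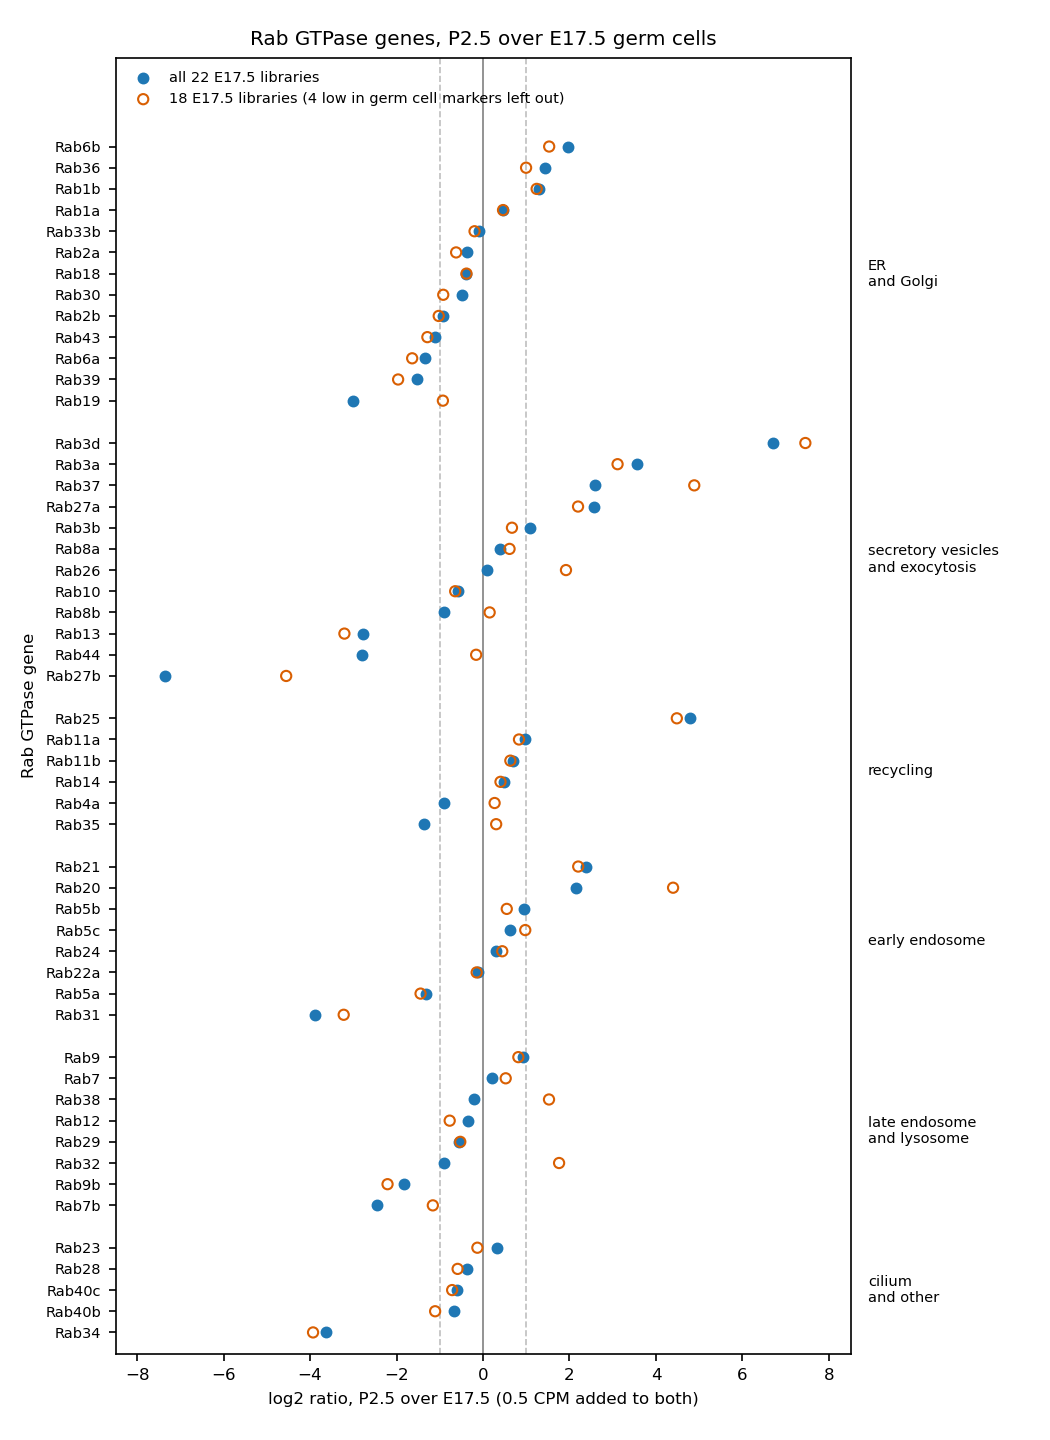
Log2 ratio of P2.5 over E17.5, with 0.5 CPM added to both stages, for the 52 measured Rab GTPase genes, grouped by the compartment each is known for. Filled points use all 22 E17.5 libraries, open points leave out the 4 low in germ cell markers, and dashed lines mark a 2-fold difference. Rab3d lies farthest to the right, and Rab27b, Rab44, Rab32, Rab20 and Rab37 are among the genes whose 2 points lie far apart.

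Rab3d had the highest P2.5 over E17.5 ratio of the 52 measured Rabs. Rab3d, a Rab of secretory granules in exocrine cells, had 52.3, 596 and 1117 CPM (lowest, median, highest) in P2.5 cells, against 0.416, 0.930 and 60.2 CPM in the 22 E17.5 libraries. All but 2 P2.5 cells exceeded the highest E17.5 library, and every P2.5 cell exceeded the highest of the 18 libraries, which had 16.7 CPM. The pooled level was 629 CPM at P2.5 against 5.56 CPM at E17.5, a 113.1-fold difference (log2 ratio 6.82, interval 6.72 to 6.92), and 203.9-fold without the 4 libraries. The highest E17.5 value was that of library 16, which held 1857 CPM of granulosa cell markers, and without that library alone the ratio with 0.5 CPM added was 7.73 in place of 6.70. At P6.5 the 47 cells had 490, 699 and 978 CPM, close to P2.5, and the lowest P6.5 cell lay far above the lowest P2.5 cells.

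The synaptic vesicle Rab, Rab3a, moved the same way at a lower level. It had 0, 74.4 and 214.5 CPM in P2.5 cells against 0, 0.602 and 55.1 CPM in E17.5 libraries. In 71.7% of P2.5 cells Rab3a exceeded the highest E17.5 library. The pooled level was 77.6 CPM at P2.5 against 6.10 CPM at E17.5 (12.7-fold, log2 ratio 3.67, interval 3.57 to 3.77), and 127.1 CPM at P6.5 against 77.6 CPM at P2.5 (1.64-fold). Libraries 17, 18 and 22 held the 3 highest E17.5 values of Rab3a, 20.7, 55.1 and 26.7 CPM, and all 3 are among libraries 11 to 22. Library 18 is among those named above as high in granulosa cell markers. Without it the ratio with 0.5 CPM added was 4.30 in place of 3.57. Rab3b reached 5.59 CPM at P2.5 against 2.37 CPM at E17.5 and 3.33 CPM in the 18 libraries, where it was within 2-fold, and Rab3c stayed at or below 0.21 CPM in all 3 stages.

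By mean FPKM over all E17.5 libraries, the leading Rab3 paralogue was another after birth. By counts, the E17.5 lead of Rab3a came from libraries 11 to 22, with medians of 1.70 CPM for Rab3a and 0.85 CPM for Rab3d. In libraries 1 to 10, Rab3a reached at most 0.102 CPM and Rab3d had at least 0.529 CPM, so Rab3d was already ahead there. Rab3a gave 60.7%, 27.2% and 32.8% of the summed Rab3 FPKM at E17.5, at P2.5 and at P6.5, and Rab3d gave 18.6%, 70.5% and 64.6%. Cell by cell, Rab3d led in 11 of 22 E17.5 libraries (exact interval 28.2% to 71.8%), in 93.2% of P2.5 cells (89.7 to 95.8) and in 47 of 47 P6.5 cells (100%, 92.5 to 100). The E17.5 leader rests on few reads, since Rab3d and Rab3a averaged 158.1 and 60.9 FPKM at P2.5 against 1.45 and 4.74 FPKM at E17.5. Rab3d was the 4th most abundant Rab at P2.5 and P6.5 by mean FPKM, behind Rab11a, Rab11b and Rab1b.

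**Figure D2:**
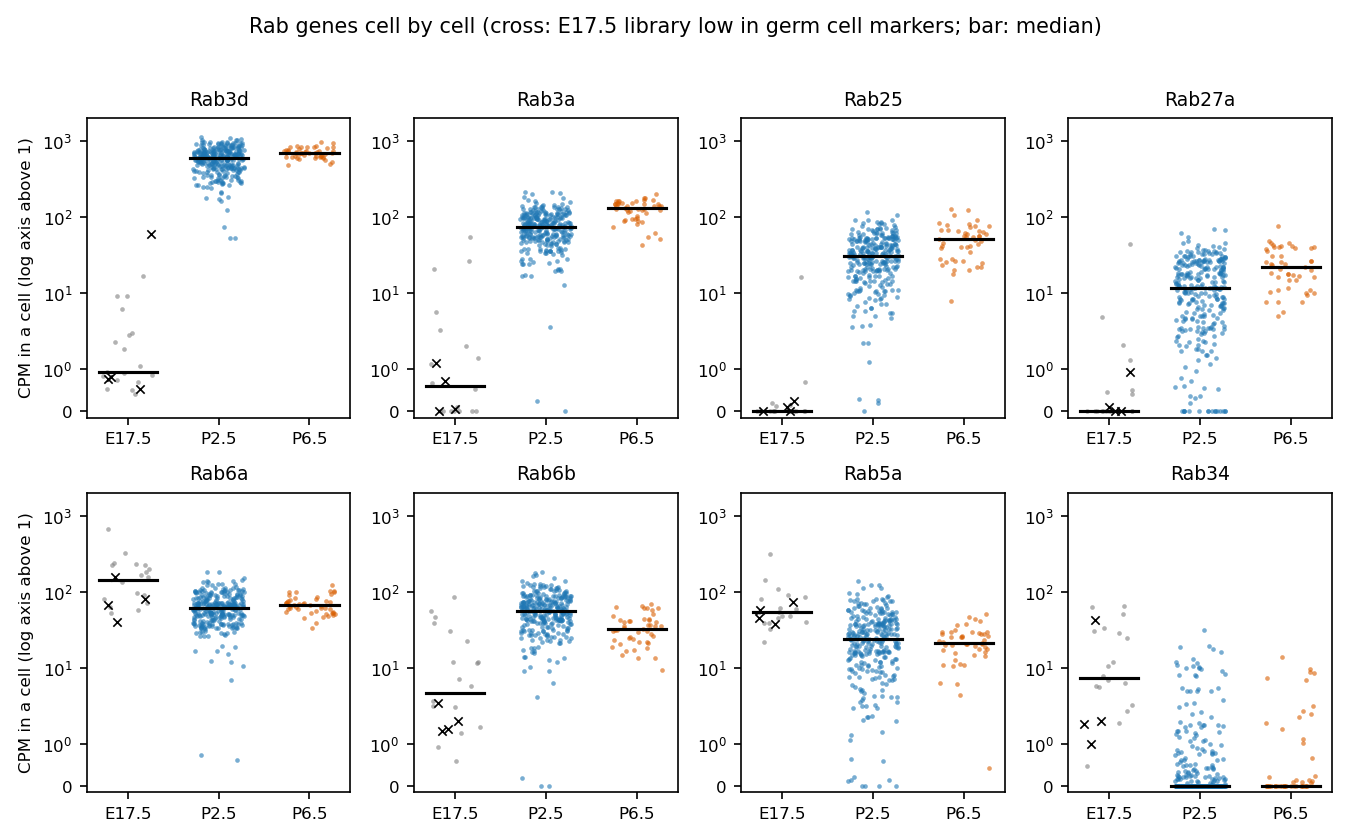
CPM of 8 Rab genes in each E17.5 library (22), each P2.5 cell and each P6.5 cell (47), on an axis that is logarithmic above 1 CPM. Bars are medians and crosses the 4 E17.5 libraries low in germ cell markers. Rab3d of P2.5 and P6.5 cells stands clear of nearly every E17.5 library, while Rab6a and Rab5a of P2.5 cells overlap the E17.5 libraries from below.

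The other secretory Rabs did not share a direction. Rab27a, which acts in melanosome and granule docking, had 0, 11.7 and 68.8 CPM in P2.5 cells against 0, 0 and 44.6 CPM in E17.5 libraries, and 4.97, 21.98 and 76.2 CPM in P6.5 cells. Its E17.5 counts came mainly from library 5, and without that library the ratio with 0.5 CPM added was 4.39 in place of 2.57. Libraries 11 to 22 held 0 counts of Rab27a. Rab13, a tight junction Rab, went the other way, with 0.90 CPM at P2.5 against 9.13 CPM at E17.5 (10.2-fold lower), and 80.2% of P2.5 cells were under the lowest E17.5 library. Rab10 was at 111.03 CPM at P2.5 against 166.99 CPM at E17.5, short of 2-fold.

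Rab27b, the paralogue used in mast cell and platelet granules, was 706-fold lower at P2.5 by pooled counts, at 0.15 CPM against 106.2 CPM at E17.5. All of its 14996 E17.5 counts came from libraries 1 to 10, and libraries 11 to 22 held 0, which allows up to 0.0385 CPM. In libraries 1 to 10 Rab27b stood at 0.84% to 1.19% of the summed mast cell markers, a 1.42-fold range over libraries whose marker sums spanned 1604 to 120425 CPM. Rab44, a large Rab of mast cell degranulation in mice, stood at 0.38% to 0.84% of them, with 1 count in libraries 11 to 22. Rab32 and Rab37 likewise had 0 counts in libraries 11 to 22. Library 10 alone held 86.5% of the E17.5 counts of Rab27b, 85.5% of Rab44, 87.3% of Rab37, 76.7% of Rab32, 74.2% of Rab20 and 86.4% of Rab19. The part of mast cell RNA in these E17.5 levels was not tested. Rab44 was at 7.70 CPM at P2.5 against 56.2 CPM at E17.5, against 8.65 CPM in the 18 libraries, and against 0.0164 CPM in the 10 of libraries 11 to 22 that are not low in germ cell markers, so its direction turned with the libraries used.

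Rab37, another granule Rab, was higher after birth with every set of E17.5 libraries. It had 0, 30.5 and 160 CPM in P2.5 cells against 0, 0 and 84.2 CPM in E17.5 libraries. The pooled ratio was 6.39-fold with all libraries and 46.4-fold without the 4, where the highest of the 18 was 9.84 CPM and 83.6% of P2.5 cells exceeded it. For the Rab27 group, Rab27a made 2.45% of the FPKM at E17.5, 99.1% at P2.5 and 99.3% at P6.5. Libraries 11 to 22 held 0 counts of both paralogues, so the E17.5 share comes from libraries 1 to 10, those with the mast cell markers. Set against libraries 11 to 22, Rab27b was not lower at P2.5.

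**Figure D3:**
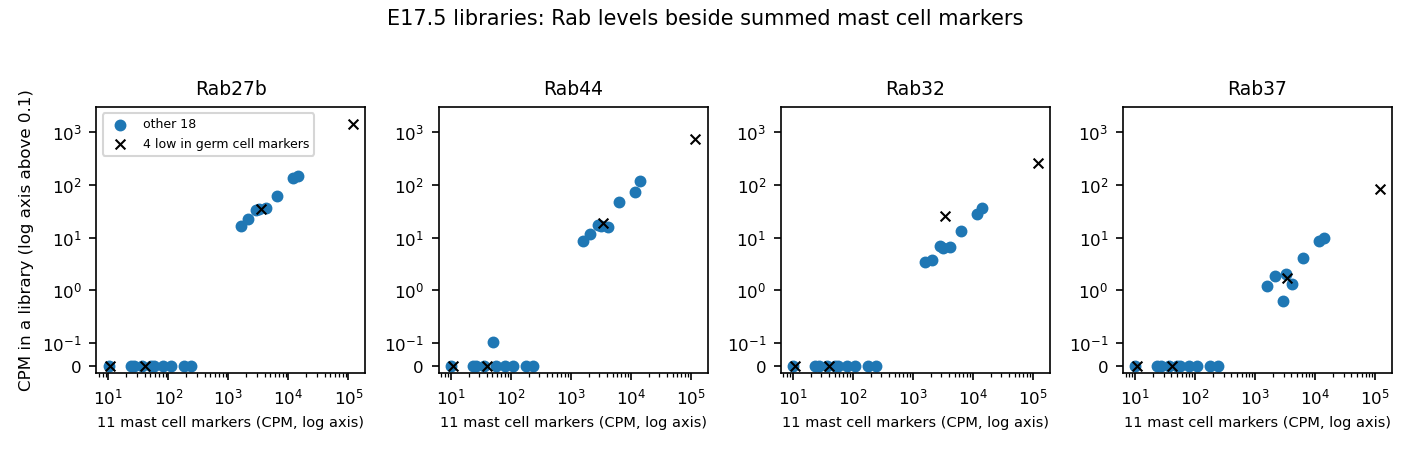
CPM of Rab27b, Rab44, Rab32 and Rab37 in the 22 E17.5 libraries against the summed CPM of 11 mast cell markers. Both axes are logarithmic, the upright one above 0.1 CPM, and crosses are the 4 libraries low in germ cell markers. All 4 genes rise with the marker sum in libraries 1 to 10 and lie at or near 0 in libraries 11 to 22.

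Per length, recycling Rabs were the most abundant group at every stage. By summed CPM the endoplasmic reticulum and Golgi Rabs were ahead of them at E17.5 (847 against 662 CPM) and at P2.5 (1136 against 1021 CPM). At P6.5 the secretory Rabs were ahead by CPM, with 1167 against 1061 CPM. By mean FPKM, Rab11a, which sorts recycling endosomes, led at each stage with 176.4 ± 94.1 at E17.5, 321 ± 72.5 at P2.5 and 463 ± 95.3 at P6.5 (SD over the cells of each stage). At E17.5 its neighbour in the order, Rab11b at 157.5 ± 70.2 FPKM, did not stand apart from it beyond the spread of cells. At P6.5 it did more clearly, with Rab11b at 277.7 ± 63.1 FPKM, and Rab11a led Rab11b in 47 of 47 P6.5 cells, in 80.5% of P2.5 cells and in 13 of 22 E17.5 libraries. Rab11a counts were 287.3 CPM at P2.5 against 145.6 CPM at E17.5 (log2 ratio 0.98), just short of 2-fold, and 346 CPM at P6.5. Rab14, of the Golgi and recycling endosomes, stayed between 273.5 and 383 CPM at the 3 stages. As a group the recycling Rabs made 36.2%, 40.4% and 46.2% of the family's FPKM at E17.5, at P2.5 and at P6.5.

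Rab25, the Rab11 relative of epithelial cells, was the 1 recycling Rab at least 2-fold higher at P2.5. It had 0, 30.4 and 116.6 CPM in P2.5 cells against 0, 0 and 16.4 CPM in E17.5 libraries. Pooled, that was 35.3 CPM at P2.5 against 0.81 CPM at E17.5 (43.8-fold, log2 ratio 5.45, interval 5.19 to 5.73). Nearly all E17.5 counts came from library 3, the E17.5 library with the highest summed oocyte growth genes at 1477 CPM, and without it the ratio with 0.5 CPM added was 5.98 in place of 4.78. With every cell thinned to 100000 counts, Rab25 was detected in 87.7% of P2.5 cells (exact interval 83.4 to 91.2) against 1 of 22 E17.5 libraries (4.55%, 0.115 to 22.8), and without thinning in 99.7% against 31.8%. At P6.5 the level was 52.2 CPM against 35.3 CPM at P2.5. Even so, Rab25 made 6.62% of the FPKM of Rab11a, Rab11b and Rab25 together at P6.5. Rab35, of fast recycling, was 20.3 CPM at E17.5, 7.53 CPM at P2.5 and 8.13 CPM at P6.5, but 79.3% of its E17.5 counts lay in the 4 low libraries, and without them E17.5 had 6.005 CPM.

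Promoters are shown for Rab3d and Rab25, the 2 genes with the highest P2.5 over E17.5 ratios when all E17.5 libraries are used. Each window runs from 250 bases before to 50 after the RefSeq start (GRCm38.p6, both on the minus strand, printed 5′ to 3′ along the gene). Capitals mark the E-box CACCTG, whose other strand reads CAGGTG.
Rab3d, chr9:21918134-21918433: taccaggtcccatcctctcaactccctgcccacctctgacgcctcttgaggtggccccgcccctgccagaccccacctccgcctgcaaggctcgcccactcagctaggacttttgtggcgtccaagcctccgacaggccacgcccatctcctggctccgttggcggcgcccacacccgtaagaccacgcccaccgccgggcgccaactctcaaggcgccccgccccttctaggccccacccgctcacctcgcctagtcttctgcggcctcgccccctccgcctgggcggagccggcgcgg
Rab25, chr3:88548230-88548529: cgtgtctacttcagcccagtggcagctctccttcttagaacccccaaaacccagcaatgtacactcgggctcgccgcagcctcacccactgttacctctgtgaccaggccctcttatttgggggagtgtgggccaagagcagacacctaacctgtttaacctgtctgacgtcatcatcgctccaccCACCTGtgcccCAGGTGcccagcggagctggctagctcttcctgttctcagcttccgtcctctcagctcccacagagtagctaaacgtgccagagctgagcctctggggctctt
The Rab25 window holds the E-box in each orientation and the Rab3d window holds none. On either strand, the E-box is in 10 of the 60 windows of Rab GTPase genes (16.7%, from 48 matched symbols) and in 6640 of 32851 windows in the table (20.2%). The homeodomain motif TAATTG, or CAATTA on the other strand, does not overlap the E-box and is in 1 of the 60 (1.67%) and in 2628 of 32851 windows in the table. These are letter matches and say nothing about binding.

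Of the Rabs of the endoplasmic reticulum and Golgi, the Rab1 pair leaned further to Rab1b after birth. Rab1b had 180.8, 499 and 877 CPM in P2.5 cells against 80.3, 193.6 and 443 CPM in E17.5 libraries, and 66.2% of P2.5 cells exceeded the highest E17.5 library. The pooled ratio was 2.45-fold (log2 ratio 1.29, interval 1.27 to 1.31), while Rab1a was 1.37-fold higher, at 298.8 CPM at P2.5 against 218.4 CPM at E17.5. Per length, Rab1b led Rab1a in 20 of 22 E17.5 libraries and in every P2.5 and P6.5 cell, with 65.5%, 75.4% and 76.7% of the pair's FPKM at the 3 stages.

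The Rab6 pair had ratios of opposite sign on the CPM scale, but not with spike-in scaling, where that of Rab6a was 1.05. Rab6a, the ubiquitous Golgi form, had 0.625, 61.8 and 184.2 CPM in P2.5 cells against 39.5, 144.2 and 666 CPM in E17.5 libraries, 2.55-fold lower when pooled (log2 ratio -1.35, interval -1.37 to -1.33). Rab6b, the form enriched in neurons, had 0, 56.03 and 181.1 CPM in P2.5 cells against 0.583, 4.73 and 85.7 CPM in E17.5 libraries, 3.997-fold higher when pooled (log2 interval 1.94 to 2.06). Their ranges overlapped at the 2 stages, with 98.6% of P2.5 cells above the E17.5 median for Rab6b and 1.37% above it for Rab6a. Rab6b made 6.27%, 35.6% and 23.9% of the pair's FPKM at E17.5, at P2.5 and at P6.5, and it led in 0 of 22 E17.5 libraries, 18.1% of P2.5 cells and 1 of 47 P6.5 cells, so Rab6a stayed ahead in most cells. Rab36, linked to the Golgi in human cells, was 2.79-fold higher at P2.5 (35.6 CPM against 12.8 CPM at E17.5). Without the 4 libraries its log2 ratio with 0.5 CPM added was 0.996, just under the 2-fold call. Rab18 and Rab2a, of lipid droplets and the early secretory pathway, stayed within 2-fold at P2.5 over E17.5, with log2 ratios of -0.40 and -0.38.

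On early endosomes the leading paralogue was Rab5a at E17.5 and Rab5b at P2.5 and P6.5. Rab5a had 0, 23.9 and 138.8 CPM in P2.5 cells against 21.5, 54.4 and 316.3 CPM in E17.5 libraries, 2.504-fold lower when pooled (log2 ratio -1.32, interval -1.35 to -1.29). Rab5b had 0.933, 105.6 and 233.7 CPM in P2.5 cells against 6.51, 38.3 and 223.8 CPM in E17.5 libraries, 1.93-fold higher and so within 2-fold. Of the P2.5 cells, 45.7% were under the lowest E17.5 library for Rab5a, and with spike-in scaling its ratio was 1.08. By FPKM, Rab5a made 52.4%, 23.2% and 17.4% of the group at the 3 stages, Rab5b 30.7%, 49.3% and 51.4%, and Rab5c 16.9%, 27.5% and 31.3%. Rab5b led in 6 of 22 E17.5 libraries (27.3%, exact interval 10.7 to 50.2), in 75.1% of P2.5 cells (69.7 to 79.9) and in 42 of 47 P6.5 cells (89.4%, 76.9 to 96.5).

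Rab21 and Rab20, endosomal Rabs of integrin traffic and phagosome maturation, were higher after birth. Rab21 had 0.158, 21.7 and 143.5 CPM in P2.5 cells against 0, 2.15 and 30.4 CPM in E17.5 libraries, 5.68-fold higher when pooled. Rab20 had 0, 16.5 and 92.9 CPM in P2.5 cells against 0, 0.286 and 43.7 CPM in E17.5 libraries, where library 10 held the highest value, and was 4.88-fold higher, or 46.5-fold without the 4 libraries. Rab31, a Rab5 relative at the trans-Golgi network, was 22.4-fold lower, with 0, 0 and 81.03 CPM in P2.5 cells against 0.875, 5.94 and 139.6 CPM in E17.5 libraries. Its highest E17.5 values were in libraries 19, which held 1136 CPM of granulosa cell markers, and 10, and the part of other cells in it was not tested. Its closest paralogue, Rab22a, barely moved, at 36.9 CPM at P2.5 against 40.3 CPM at E17.5, and made 62.2%, 96.2% and 96.1% of the pair's FPKM at the 3 stages.

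Among late endosomal Rabs, Rab7 had 113.2, 131.5 and 191.1 CPM at E17.5, at P2.5 and at P6.5 and was at least 96.1% of the FPKM of Rab7 and Rab7b throughout. Rab9, of retrieval from late endosomes, had 27.9, 53.02 and 35.2 CPM. Rab7b was at 0.58 CPM at P2.5 against 5.42 CPM at E17.5, but 75.3% of its E17.5 counts lay in the 4 low libraries, with 74.99 CPM in library 16, and without library 16 its ratio with 0.5 CPM added was -0.88 in place of -2.46.

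Rab38 was the 1 Rab at least 2-fold higher at P6.5 than at P2.5. Rab32 and Rab38 are the Rabs of lysosome-related organelles such as melanosomes, and share the exchange factor BLOC-3. Rab38 had 0, 26.8 and 116.2 CPM in P6.5 cells against 0, 1.14 and 49.97 CPM in P2.5 cells, and 43 of 47 P6.5 cells lay above the P2.5 median. Pooled, it was 6.73-fold higher (log2 interval 2.72 to 2.79), at 34.2 CPM in P6.5 against 5.08 CPM in P2.5. Thinned to 100000 counts, it was detected in 40 of 47 P6.5 cells (85.1%, exact interval 71.7 to 93.8) against 25.9% of P2.5 cells (21.02 to 31.4), and without thinning in 95.7% against 70.6%. Rab32 had 20.4 CPM at P6.5 against 11.3 CPM at P2.5. Rab38 made 28.6%, 34.5% and 68.8% of the pair's FPKM at E17.5, at P2.5 and at P6.5, and led in 31 of 47 P6.5 cells and in 27.01% of the P2.5 cells with any of the pair. At E17.5, 83.1% of Rab38 counts lay in the 4 low libraries, mostly in library 8 with 42.8 CPM, and without the 4 libraries Rab38 made 51.4% of the E17.5 share.

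Within a stage, Rab38 varied with oocyte growth. As a description, across 47 P6.5 cells Spearman's correlation of its CPM with the summed CPM of 10 oocyte growth genes was 0.61, and with total counts 0.21, and Rab32 gave 0.03 with the growth genes. Across P2.5 cells Rab3d gave 0.61 with the growth genes and 0.37 with total counts, the highest of the single Rabs compared at that stage, while Rab21 gave the lowest with the growth genes at -0.24. At P6.5 Rab3d gave -0.25, in cells that all had 490 CPM or more. Rab35 and Rab3b at 0.59 and 0.56, and Rab6b and Rab20 at -0.50 and -0.43, were the other Rabs farthest from 0 at P6.5. Cells of a stage may share animals, which the labels do not name, and both measures share the library total.

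**Figure D4:**
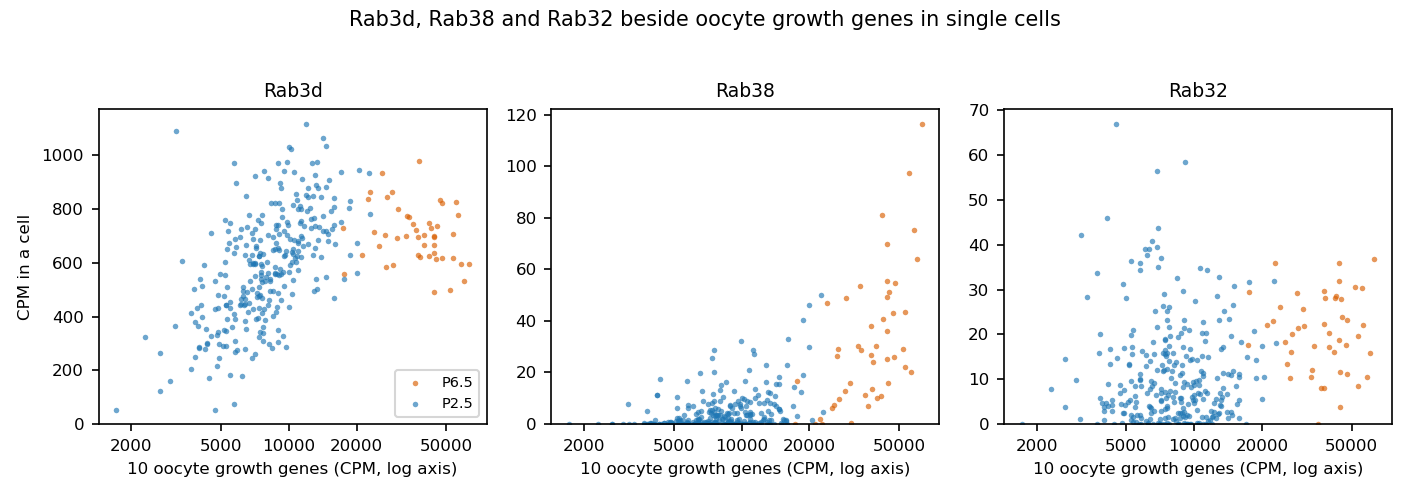
CPM of Rab3d, Rab38 and Rab32 in single P6.5 cells (47) and P2.5 cells against the summed CPM of 10 oocyte growth genes on a logarithmic axis. Rab3d climbs across P2.5 cells but not across P6.5 cells, where its Spearman's correlation is -0.25. Rab38 climbs across P6.5 cells, and Rab32 shows no such slope at either stage.

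The last group, Rabs linked to cilia or placed in no other compartment, held 5 measured genes. For P2.5 over E17.5, 0 of these 5 passed the 2-fold line upward and 1 downward, beside 22.6% and 32.4% of all measured genes. With only 5 genes, these counts do not set the group apart from the background. Rab34, which acts in early ciliogenesis, had 0, 0 and 31.4 CPM in P2.5 cells against 0.468, 7.39 and 64.8 CPM in E17.5 libraries, 17.3-fold lower when pooled (log2 ratio -4.11, interval -4.19 to -4.03). It was under the lowest E17.5 library in 72.35% of P2.5 cells and in 32 of 47 P6.5 cells. Rab28, known from photoreceptor cilia, had 30.7 CPM at P6.5 against 60.3 CPM at P2.5, just short of 2-fold, and Rab23, an inhibitor of Hedgehog signalling, stayed between 42.3 and 53.3 CPM at the 3 stages. This group made 6.77%, 3.40% and 1.95% of the family's FPKM at E17.5, at P2.5 and at P6.5, while the secretory Rabs made 16.3% at P2.5 against 10.4% at E17.5, or 7.96% at E17.5 without the 4 libraries.

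Over 16 paralogue groups, the member with the highest mean FPKM was another at P2.5 than at E17.5 in 4 groups, namely Rab3, Rab4, Rab5 and Rab27. Between P2.5 and P6.5 the leader differed in 1 group, Rab32 and Rab38. Without the 4 E17.5 libraries the count for P2.5 over E17.5 was also 4, with Rab32 and Rab38 in place of Rab4. By counts rather than FPKM it was 5, with Rab1 and Rab11 in place of Rab4, and by median FPKM 5, with Rab11 and the Rab32 pair in place of Rab27. Rab3 and Rab5 were in the list under all 5 ways of counting, none of which set libraries 1 to 10 apart from 11 to 22. By counts, Rab3d was ahead of Rab3a in libraries 1 to 10 already at E17.5, so the Rab3 entry rests on libraries 11 to 22. Pairs that kept a steady leader were Rab2a over Rab2b, Rab7 over Rab7b, Rab9 over Rab9b, Rab33b over Rab33a and Rab40c over Rab40b, and Rab8a led Rab8b in 11 of 22 E17.5 libraries, 98.97% of P2.5 cells and 47 of 47 P6.5 cells.

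**Figure D5:**
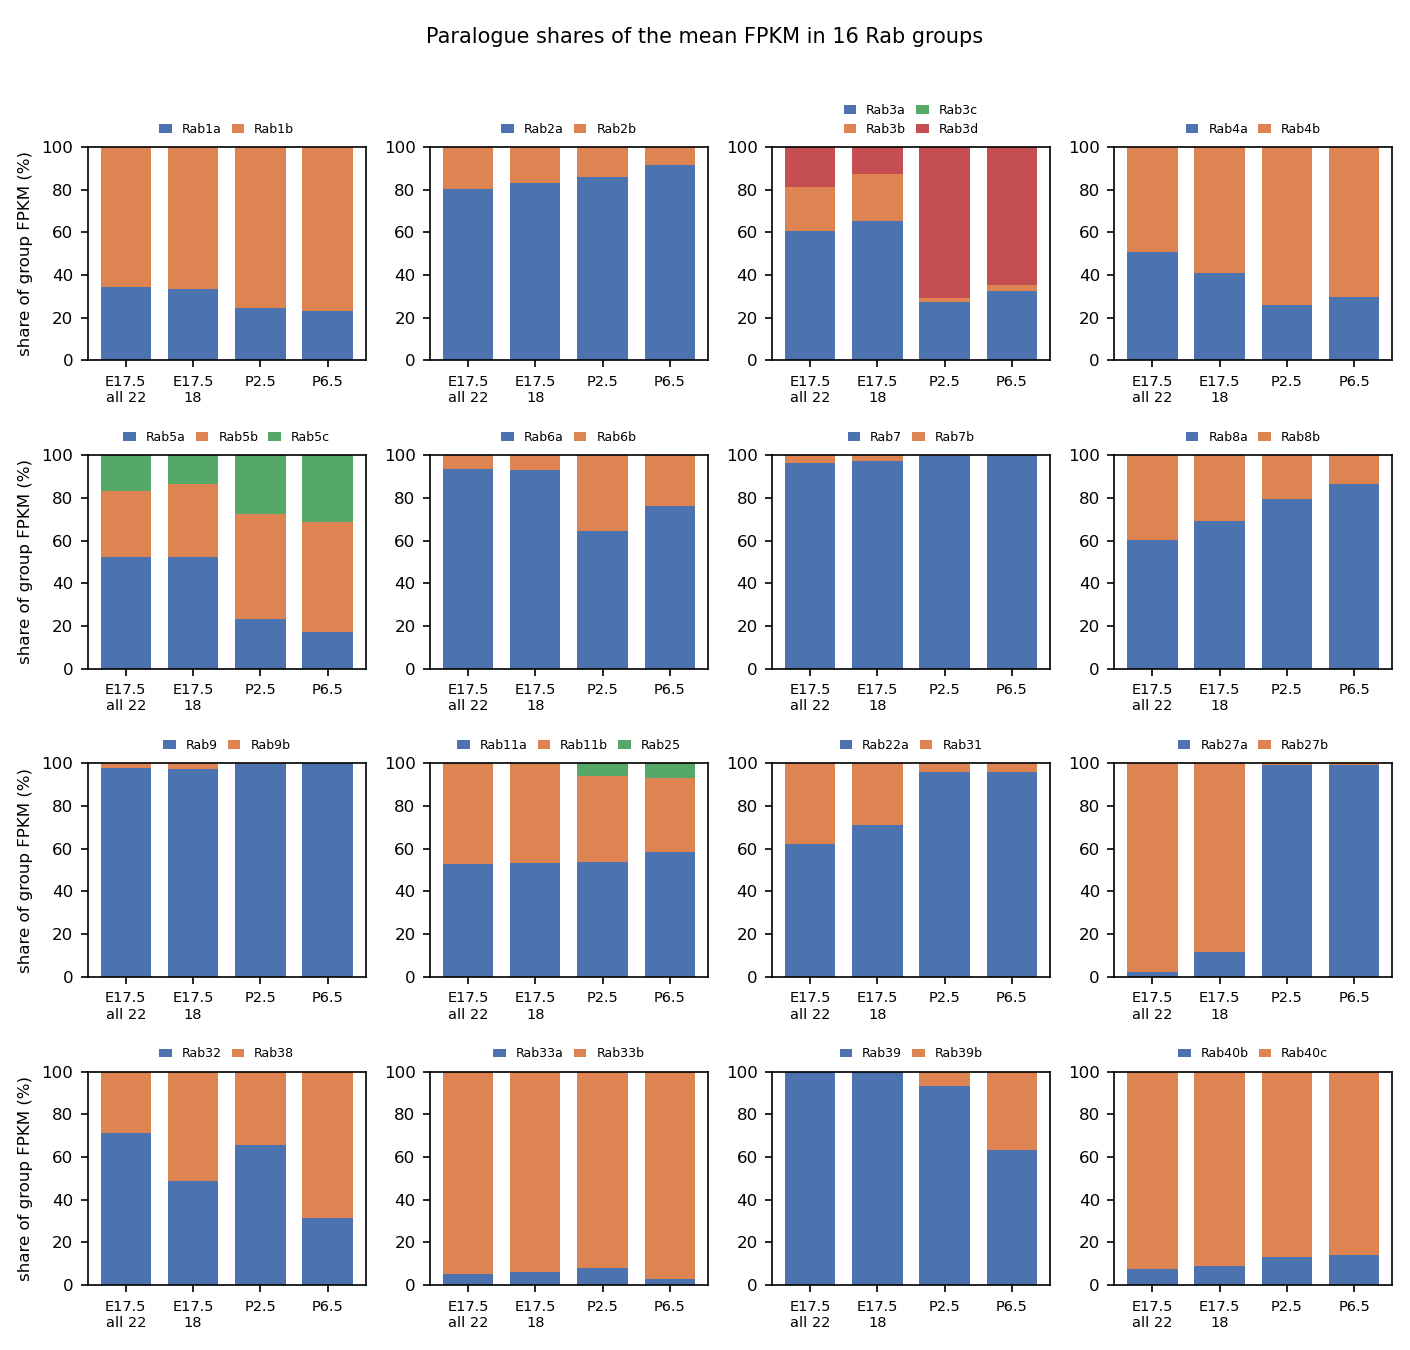
Share of each paralogue in the summed mean FPKM of its group, for 16 Rab groups, with all 22 and with 18 E17.5 libraries, and in P2.5 and P6.5 cells. Each bar starts at 0 and adds to 100%. The Rab27 and Rab3 bars differ most between P2.5 and all 22 E17.5 libraries, and the leader of the Rab32 and Rab38 bar differs between P6.5 and P2.5.

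The remaining members were low or within 2-fold. Rab8a, of transport to the plasma membrane, had 90.5, 118.9 and 115.1 CPM at E17.5, at P2.5 and at P6.5, and Rab33b, of the Golgi and autophagosomes, had 18.5, 17.2 and 21.4 CPM. Rab12, Rab29 and Rab30 lay between 4.80 and 17.5 CPM in all 3 stages. Rab9b, Rab19 and Rab43 were under 5 CPM at E17.5 and under 1 CPM at P2.5, and each lost its call without 1 E17.5 library. Rab15, Rab17, Rab33a, Rab39b and Rab42 stayed under 1 CPM in all 3 stages.

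The Rab4 pair shows how far the 2 deposited measures can part. By FPKM, Rab4b made 49.02%, 73.9% and 70.1% of the pair at E17.5, at P2.5 and at P6.5, whereas by counts Rab4a made 99.5%, 96.1% and 94.6%. In the annotation, 64.97% of the exon bases of Rab4b also belong to other genes, and its counts and FPKM at P2.5 together imply an effective length of 0.963% of its exon bases. Rab24, Rab2b and Rab43 show the same mismatch, with 62.43%, 63.99% and 75.35% of exon bases shared and implied lengths of 8.35%, 6.98% and 4.70%. Whether reads in shared exons were left uncounted was not tested, and the levels of these 4 genes are uncertain.

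At P6.5 over P2.5 few Rabs differed. Of 47 measured, 1 was at least 2-fold higher, Rab38, beside 6.90% of all measured genes. At least 2-fold lower were 2, Rab26 and Rab39, beside 9.30% of all measured genes. Rab26, a secretory granule Rab, was at 0.47 CPM at P6.5 against 2.35 CPM at P2.5, and Rab39 at 0.10 against 1.37 CPM, both low. The median Rab ratio was -0.05. Scaling moves the count of higher genes, to 2 with TMM factors, 5 with median-of-ratios factors and 45 with spike-in scaling.

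At P6.5 over E17.5, 14 of 53 measured Rabs were at least 2-fold higher, beside 22.7% of all measured genes, and 19 at least 2-fold lower, beside 39.5%. Without the 4 libraries the counts were 14 and 15 of 52, with backgrounds of 23.6% and 39.7%. This comparison shares its samples with the 2 above and its values are their sum on the log scale: Rab3d had 701 CPM at P6.5 against 5.56 CPM at E17.5, Rab3a 127.1 against 6.10 CPM and Rab25 52.2 against 0.81 CPM. Rab34 had 1.60 CPM at P6.5 against 20.2 CPM at E17.5, and with spike-in scaling its ratio was 1.66, on the other side of 0. Rab40b, Rab40c, Rab28 and Rab8b crossed the 2-fold line downward here with log2 ratios of -1.40, -1.06, -1.35 and -1.49, which with spike-in scaling were 3.82, 4.25, 3.98 and 3.83. Rab40b lost that call without library 20 and Rab40c without any 1 of libraries 16, 19, 21 and 22, and Rab8b, with 66.4% of its E17.5 counts in the 4 low libraries, lost it without them, at a log2 ratio of -0.43.

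The 4 matches that are not GTPases were read on their own. Rab3ip, also named Rabin8 and an exchange factor for Rab8, had 79.7 CPM at P2.5 against 37.8 CPM at E17.5, 2.11-fold higher, and 1.81-fold without the 4 libraries. The antisense RNA Rab10os, which shares 2.33% of its exon bases with Rab10, had 22.04 CPM at P2.5 against 52.6 CPM at E17.5, and since the strand setting of the counting was not given in the sources used here, its reads and those of Rab10 cannot be fully told apart. Rab26os stayed under 1 CPM, and Rab5if, a membrane protein named for binding Rab5, had 38.2 CPM at P2.5 against 43.4 CPM at E17.5.

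The machinery around the Rabs was described with 4 lists, beside the same backgrounds as above. At P2.5 over E17.5, 22.6% of all measured genes were at least 2-fold higher and 32.4% at least 2-fold lower. Of 6 prenylation and escort genes, 1 was at least 2-fold higher at P2.5 over E17.5 and 0 were lower. It was Rabggta, a subunit of the enzyme that attaches the prenyl group, with 100.7 CPM at P2.5 against 23.4 CPM at E17.5 (log2 ratio 2.10, interval 2.06 to 2.15). Of 43 measured exchange factors, 6 were higher and 14 lower. Of 34 measured GTPase-activating proteins, 10 were higher and 4 lower, and of 39 measured effectors, 13 were higher and 8 lower. The median log2 ratios of the 4 lists were 0.47, -0.43, 0.31 and 0.05. Without the 4 libraries 1, 6, 11 and 12 genes of the lists were higher and 0, 13, 7 and 6 lower, with medians of 0.48, -0.32, 0.15 and -0.07, so the effector median changed sign. The backgrounds were then 23.1% and 32.7%. With the 10 of libraries 11 to 22 not low in germ cell markers, 10 of 42 exchange factors were higher, beside 26.6%. At P6.5 over P2.5, 0 of 6, 2 of 41, 2 of 34 and 3 of 37 measured genes of these lists were at least 2-fold higher, and 0, 0, 1 and 6 were lower. The backgrounds there were 6.90% and 9.30% of all measured genes.

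The effectors with the highest P2.5 over E17.5 ratios were Rph3al, Myo5b and Sytl4. Rph3al (Noc2), an effector of Rab3 and Rab27, had 3.43, 94.96 and 180.7 CPM at E17.5, at P2.5 and at P6.5. Sytl4 (granuphilin), which docks granules through Rab27 and Rab3, had 7.68, 39.01 and 65.8 CPM, and Myo5b, a motor of Rab11 vesicles, had 12.5, 113.8 and 318 CPM. The lowest effector ratios were those of Mical1, Unc13d and Sytl3, the last a Rab27 effector, with 0.28, 1.37 and 0.66 CPM at P2.5 against 36.3, 69.1 and 28.6 CPM at E17.5. Unc13d is a priming factor of granule release in blood cells, and the 18 libraries had 20.8 CPM of it.

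Exchange factors and GTPase-activating proteins held members in both directions. Rab3il1 (GRAB), an exchange factor for Rab8, had 60.5 CPM at P2.5 against 11.9 CPM at E17.5, or 1.18 CPM in the 18 libraries. Rin1 and Rin2, exchange factors for Rab5, had 0.07 and 4.06 CPM at P2.5 against 6.20 and 24.1 CPM at E17.5. Sgsm1, a GTPase-activating protein, had 0.04, 23.8 and 104.8 CPM at E17.5, at P2.5 and at P6.5, and Rabgap1l had 20.8 CPM at P2.5 against 103.4 CPM at E17.5. Chosen after their values were seen, the Rab3 effectors Rims1 and Rims2 differed in opposite directions, with 50.7 and 5.58 CPM at P2.5 against 11.2 and 38.7 CPM at E17.5. Madd, the exchange factor of Rab3 and Rab27, also chosen in that way, had 13.9 CPM at P2.5 against 60.5 CPM at E17.5.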

How the data were processed

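Gene counts and FPKM values of 386 single-cell Smart-seq2 libraries were used as the authors deposited them. Per the submitters' processing notes, STAR 2.7.10b, HTSeq 0.13.5, RSEM 1.3.3 and build mm10 were named, with the tool behind each table not given in the sources used here. Deposited counts were whole numbers per gene and the deposited FPKM were divided by gene length and depth. The FPKM column of a library matched its own counts best in 384 of 386 libraries. The members and lists were chosen with earlier results of these data known.

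The 92 spike-in entries were left out of totals, and 54658 gene entries were kept. Pairs of P2.5 libraries with a median chi-square under 1.5 over genes with at least 20 summed counts were summed, which joined 24 pairs at 0.686 to 1.03 and gave 293 P2.5 cells from 317 libraries, while the next pair stood at 2.32. No cell was under 100000 counts or 2000 genes, so 0 were removed. Since cells were picked by hand, no doublet caller was run, and other cell types were followed by summed markers. Counts were summed per stage and scaled to CPM. Log2 ratios carry exact conditional 95% Poisson intervals, and shares carry exact Clopper-Pearson intervals. A gene was measured at 1 CPM or more in either stage with a count in at least 3 cells, and called at a 2-fold difference after adding 0.5 CPM. The limit that 0 counts allow is 3 counts. Detection was compared after thinning to 100000 counts. Each stage is 1 sample, so no p-value was computed. The ratio step was run on simulated Poisson counts of pooled stages. These hold no variation among cells and no duplicate reads, so they check the computation only.

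Named with values are Rabs of at least 5 CPM with a 2-fold difference, members of paralogue groups at that level, the 10 highest by mean FPKM at any stage, the matches that are not GTPases, and up to 3 regulators per list and direction. Libraries under 1000 CPM of germ cell markers, 4 at E17.5, were left out in an alternative. Python 3.11.15, numpy 2.4.6, pandas 2.3.3, scipy 1.17.1, Biopython 1.88, matplotlib 3.10.9 and R 4.3.3 were used, with edgeR 4.0.16 for TMM factors and DESeq2 1.42.0 for median-of-ratios factors.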

Additional observations from a re-analysis of the deposited data

How the results depend on the processing

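The 47 called ratios followed here are those of genes with at least 5 CPM in either stage. Calls of genes below that level were left out of these counts. Of the 47, 47 stayed at least 2-fold the same way with 0.1 CPM added, without a filter on low counts or with every library its own cell. With 1 CPM added 45 stayed, 41 by mean FPKM, 41 by mean CPM, 39 by median CPM, 39 with TMM, 41 with median-of-ratios and 30 with spike-in scaling. By E17.5 libraries, 36 stayed without the 4 low ones, 38 with libraries 1 to 10, 41 with libraries 11 to 22 and 35 with the 10 of these not low in germ cell markers, a set chosen after seeing the data. For P2.5 over E17.5, spike-in scaling gave 41 higher and 4 lower genes with a median of 2.05, and median CPM gave 7 lower with a median of 0.56. For P6.5 over P2.5, TMM gave 2 higher with a median of 0.19, median-of-ratios 5 with 0.29, spike-in scaling 45 higher and 0 lower with 2.88, median CPM 2 higher and 0 lower, and a minimum of 5 CPM 0 lower. For P6.5 over E17.5, TMM gave 11 lower with a median of 0.48, median-of-ratios 11 with 0.44, spike-in scaling 48 higher and 4 lower with 5.13, median CPM 9 lower and the 10 libraries 12 lower. Signs turned for 19 of the 47 called ratios. At P2.5 over E17.5, spike-in scaling gave Rab35 0.96, Rab5a 1.08 and Rab6a 1.05, median CPM gave Rab44 2.35, the 18 libraries Rab35 0.30, libraries 1 to 10 Rab7b 1.11, libraries 11 to 22 Rab27b 0.38 and Rab44 3.999, and the 10 libraries Rab27b 0.38, Rab35 0.15 and Rab44 3.99. At P6.5 over E17.5, spike-in scaling gave Rab13 2.02, Rab28 3.98, Rab31 1.43, Rab34 1.66, Rab35 3.98, Rab40b 3.82, Rab40c 4.25, Rab44 2.30, Rab5a 3.63, Rab6a 4.04 and Rab8b 3.83. Median CPM there gave Rab40b 0.58, Rab40c 0.0634 and Rab44 3.33, the 18 libraries Rab35 0.41, libraries 1 to 10 Rab40c 0.29 and Rab7b 0.0279, libraries 11 to 22 Rab27b 0.38 and Rab44 3.85, and the 10 libraries Rab27b 0.38, Rab35 0.26 and Rab44 3.84. The cause was not tested. Without each E17.5 library in turn, P2.5 over E17.5 had 11 to 14 higher and 11 to 15 lower genes with medians of -0.35 to -0.14, and P6.5 over E17.5 had 13 to 15 and 16 to 20 with medians of -0.17 to -0.07. Calls at P2.5 over E17.5 ended without 1 library for Rab3b (0.94 without library 8), Rab35 (-0.98, library 8), Rab39 (-0.87, library 22), Rab44 (-0.17, library 10), Rab7b, Rab9b, Rab19 and Rab43. At P6.5 over E17.5 Rab26, which is not among the 47, had 0.48 without library 16 in place of -1.47. No paired analysis was possible because the replicate numbers only name cells and no ratio comes from a test.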
